A study of Homo sapiens with 11 samples.

Results

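The TRIM family of ubiquitin ligases was described in lung adenocarcinoma cells transfected with 1 of its members, TRIM58. Members were all genes whose symbol is TRIM followed by a number. Of 67 such symbols in the RefSeq table, 63 had a probe on the array, among 20249 genes named there. TRIM16, TRIM73, TRIM74 and TRIM75 had none. Where a gene had several probes, the brightest over all arrays was used. In A549, 34 of the 63 genes were measured, which means a signal that the scanner software called well above background on all arrays of the mock or of the TRIM58-WT group, and in HCC827, 41 were.

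Both lines are established human lung adenocarcinoma cell lines, and HCC827 is known for an activated and amplified EGFR gene. The cells had been stably transfected with a retroviral vector and selected with G418. The vector was empty in the mock cells and held the coding sequence of FLAG-tagged wild-type TRIM58 in the TRIM58-WT cells, so that vector and selection were common to all 4 groups. The study calls its stable A549 transfectants clones and those of HCC827 crude, and which clone each A549 array holds is not given in the sources used here. For A549 there were 3 TRIM58-WT arrays and 4 mock arrays that held 3 replicates, and for HCC827 there were 2 replicates of each kind. Arrays mock 1-1 and mock 1-2 of A549 carry the same control cell in their labels and were averaged to 1 replicate. The labels do not say whether the other replicates came from separate cultures, so p-values measure only the spread between these samples.

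TRIM proteins carry a RING finger, B-box zinc fingers and a coiled coil, followed by a C-terminal domain that differs between subfamilies. The RING finger binds a ubiquitin-conjugating enzyme, and the C-terminal domain, most often PRY-SPRY, usually selects the substrate. Several members act in the antiviral response and are induced by interferon. TRIM58 itself is best known from red blood cell precursors, where it promotes degradation of the motor protein dynein.

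Each value below is the log2 of the array signal after subtraction of the array's 75th percentile, so that 0 is the level below which 75% of the probes of that array lay. A difference of 1 on this scale is a 2-fold difference. Signals of different probes were not ranked as levels of different genes, because probes differ in brightness. In bulk RNA, fewer cells with a transcript and less transcript per cell cannot be told apart.

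Promoter windows are shown for selected members, and TRIM29 is missing because it had no window. Of the 63 genes, 49 had at least 1 window in the RefSeq promoter table (GRCh38.p14), and only the 250 bases before the transcription start were used. TRIM31, TRIM15 and TRIM58 are shown with CG dinucleotides in capitals, since CpG methylation of TRIM58 is the subject of the study. TRIM31 lies at chr6:30113091-30113340 on the minus strand, TRIM15 at chr6:30163296-30163545 on the plus strand and TRIM58 at chr1:247856937-247857186 on the plus strand.
TRIM31: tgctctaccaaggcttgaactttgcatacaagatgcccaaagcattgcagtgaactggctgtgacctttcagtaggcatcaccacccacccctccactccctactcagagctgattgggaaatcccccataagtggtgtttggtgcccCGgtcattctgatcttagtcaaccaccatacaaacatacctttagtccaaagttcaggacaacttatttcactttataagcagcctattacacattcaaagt
TRIM15: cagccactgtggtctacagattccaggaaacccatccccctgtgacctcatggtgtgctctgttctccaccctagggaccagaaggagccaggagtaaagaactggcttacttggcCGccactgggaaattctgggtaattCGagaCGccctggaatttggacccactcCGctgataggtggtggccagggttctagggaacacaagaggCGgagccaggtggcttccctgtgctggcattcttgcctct
TRIM58: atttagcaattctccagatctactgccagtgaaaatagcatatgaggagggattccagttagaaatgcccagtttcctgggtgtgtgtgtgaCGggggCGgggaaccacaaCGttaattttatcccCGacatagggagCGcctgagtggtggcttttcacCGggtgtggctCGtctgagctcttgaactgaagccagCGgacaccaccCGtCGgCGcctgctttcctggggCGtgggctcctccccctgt

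The TRIM31 window held 1 CG dinucleotide, and 93.9% of the 35116 windows of all genes held as many or more. The TRIM15 window held 5 and the TRIM58 window 12, against a median of 11 over all windows. The study lists its TRIM58 CpG island at exon 1, whereas the window ends before the start. The count therefore does not describe that island as a whole. Windows of TRIM genes well above background in either line had a median of 12, and those of TRIM genes well above background in neither line a median of 4.

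A second pair is shown for the core motif of the interferon-stimulated response element, which is GAAA, any 2 bases and GAAA again, searched on both strands and printed in capitals. TRIM34 lies at chr11:5624751-5625000 on the plus strand, and a further TRIM34 start held no match. TRIM14 lies at chr9:98119223-98119472 on the minus strand.
TRIM34: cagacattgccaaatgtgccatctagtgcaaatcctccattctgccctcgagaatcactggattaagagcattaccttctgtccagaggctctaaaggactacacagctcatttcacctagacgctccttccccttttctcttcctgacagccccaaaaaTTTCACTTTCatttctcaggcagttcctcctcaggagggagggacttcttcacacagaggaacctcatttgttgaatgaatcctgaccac
TRIM14: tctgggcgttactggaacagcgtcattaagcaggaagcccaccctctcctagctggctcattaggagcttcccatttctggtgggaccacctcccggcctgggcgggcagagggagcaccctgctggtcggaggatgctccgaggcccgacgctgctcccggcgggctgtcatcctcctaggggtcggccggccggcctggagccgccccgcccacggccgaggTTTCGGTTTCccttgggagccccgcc

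The motif was found in 7 of 67 windows of TRIM genes, or 10.4%, and in 3.02% of all windows. The genes were TRIM2, TRIM5, TRIM14, TRIM26, TRIM34, TRIM44 and TRIM69, and the match lay 90 bases before the start in TRIM34 and 26 bases before it in TRIM14. A second motif, TGANTCA, to which AP-1 factors bind, was found in 8 windows of TRIM genes, or 11.9%, and in 6.57% of all windows. A match is a run of letters and not a measured binding site.

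TRIM58, the transfected gene, was examined first. On the A549 mock arrays its probe read -5.28 and -5.33 on mock 1-1 and 1-2, -5.18 on mock 2 and -0.71 on mock 3. On the A549 TRIM58-WT arrays it read -4.84, -4.63 and -4.63. In HCC827 it read -5.15 and -5.25 on the mock arrays and -5.64 and -5.38 on the TRIM58-WT arrays. The 75th percentile subtracted was a signal of 60.3 on A549 mock 3 and of 62.5 and 56.6 on A549 TRIM58-WT 2 and 3. On the other arrays it was 90.5 to 125, so the same raw signal near the floor reads higher on the dimmer arrays. The probe was well above background on 1 of 11 arrays, A549 mock 3, and on none of the 5 arrays labelled TRIM58-WT. The source of the signal on A549 mock 3 was not tested. The study's methods state that overexpression of the protein in the clones was checked by western blotting and immunocytochemistry, which were not analysed here. Where the probe lies relative to the transfected coding sequence is not known here, and a probe outside that sequence would check nothing about the transgene. TRIM58-WT and mock are therefore used below as the names of the labelled arrays, and every direction rests on those labels.

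A549 mock 3 and A549 TRIM58-WT 1 each stood apart from their group. Over the 13910 probes well above background on all arrays, the SD of the log2 difference was 0.69 between mock 2 and mock 3, 0.74 between TRIM58-WT 1 and 2 and 0.24 between the paired arrays mock 1-1 and mock 1-2. The SD between mock 3 and TRIM58-WT 3 was 0.51, and that between TRIM58-WT 2 and 3 was 0.19, below that of the same-cell mock pair. Of 11185 genes well above background in A549, 1344 lay over 1 log2 unit from the rest of the group on mock 3 and 1573 on TRIM58-WT 1, and among the 34 TRIM genes 5 did so on mock 3 and 1, TRIM6, on TRIM58-WT 1. The arrays were on 2 slides, with all HCC827 arrays, A549 mock 1-1, mock 2 and TRIM58-WT 1 on 1 slide and the other A549 arrays on the other. EGFR was lower in A549 mock than in HCC827 mock by limma (log2 difference -4.40 ± 0.24 SE, adjusted p = 0.000205). Of 4 lung lineage markers, NKX2-1 and NAPSA were well above background on every HCC827 array. NKX2-1 was so on no A549 array and NAPSA on 1 array of each A549 group. SFTPB was so on 1 array of each HCC827 group and on no A549 array. SFTPC went the other way, with means of -2.58 in A549 mock and -2.04 in A549 TRIM58-WT against -3.09 and -3.13 in HCC827, and was well above background on few arrays.

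**Figure D1:**
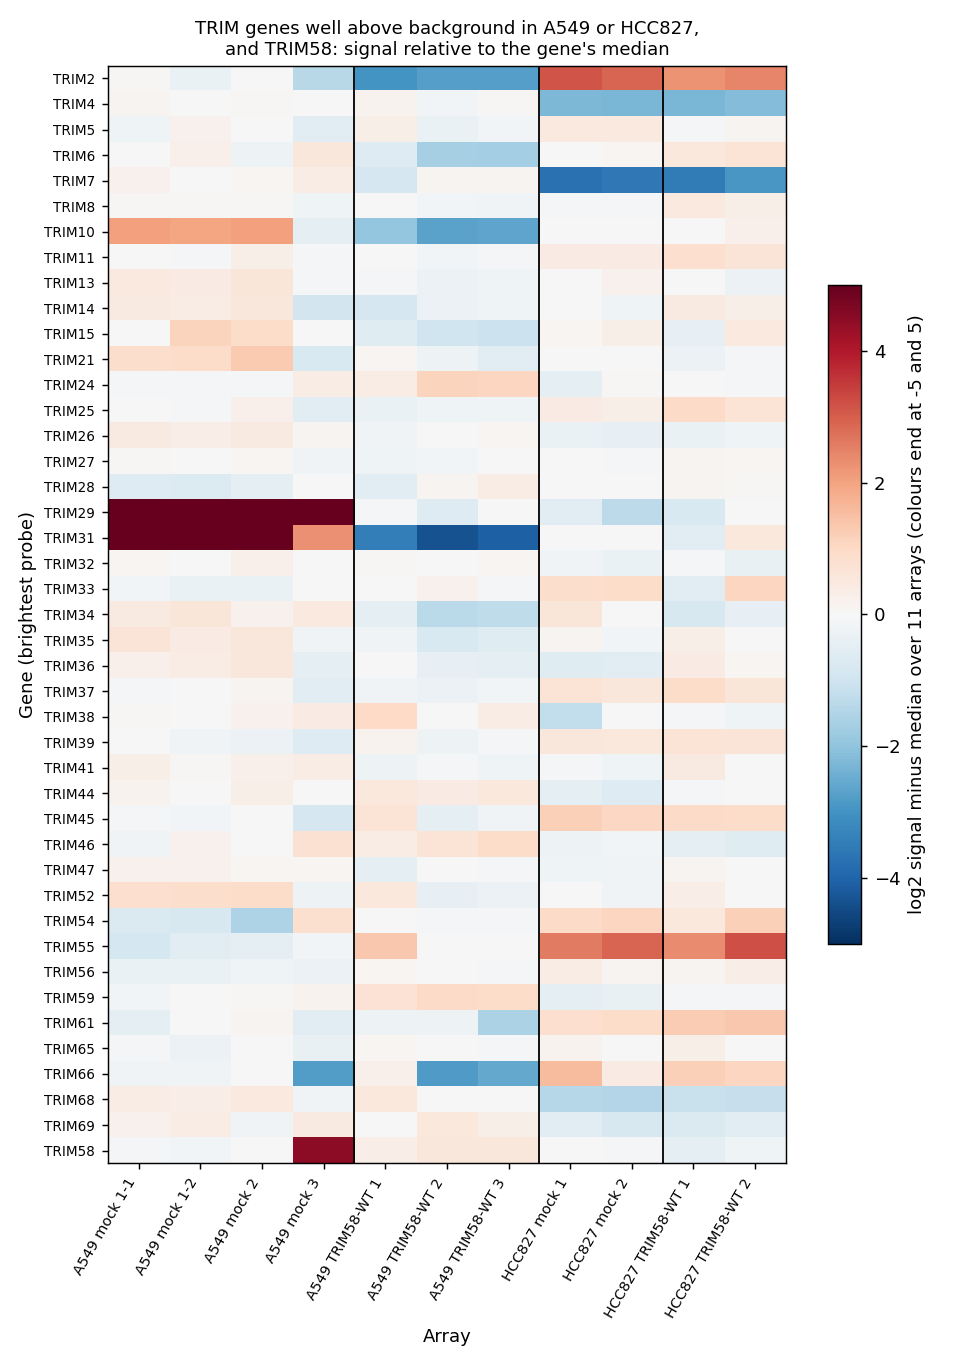
Signal of the 42 TRIM genes well above background in A549 or HCC827, and of TRIM58, on each of the 11 arrays, as the log2 signal minus the gene's median over the arrays. Columns are arrays in the 4 groups separated by lines, and rows are genes. TRIM29 and TRIM31 are high on the A549 mock arrays and lower on mock 3, and TRIM58 stands out on A549 mock 3 alone.

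The share of the family well above background was near that of all named genes in both lines. In A549 the 34 genes made up 54.0% of the members, and 55.2% of all named genes met the same criterion. In HCC827 the 41 genes made up 65.1%, against 60.2% of all named genes. Both lines shared 33 members, 21 were well above background in neither line, and 15 were so on no array. TRIM29 met the criterion in A549 only. TRIM2, TRIM5, TRIM10, TRIM36, TRIM54, TRIM55, TRIM61 and TRIM66 met it in HCC827 only.

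The 5 strongest TRIM probes were of the same genes in both lines. TRIM47 read between 5.10 and 5.80 over the A549 replicates and between 5.35 and 5.70 over the HCC827 replicates. TRIM28, the KAP1 corepressor that acts with KRAB zinc finger proteins, read 4.41 to 5.44 in A549 and 5.08 to 5.21 in HCC827. TRIM25, the ligase known to modify the RNA sensor RIG-I, read 4.04 to 4.88 and 4.92 to 5.57. TRIM41 and TRIM27 completed the group, with 4.08 to 4.73 and 3.56 to 3.86 in A549.

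Measured members were counted by subfamily, and differences between subfamilies were not tested. Of all named genes, 55.2% were measured in A549 and 60.2% in HCC827. Of 34 genes with a PRY-SPRY domain, 19 were well above background in A549 and 21 in HCC827. All 4 genes with a PHD finger and a bromodomain, the transcriptional coregulators TRIM24, TRIM28, TRIM33 and TRIM66, were so in HCC827, and 3 in A549. Of the 8 genes with a COS box, a motif that binds microtubules, 4 were so in HCC827 (TRIM36, TRIM46, TRIM54 and TRIM55) and TRIM46 alone in A549. Of the 4 genes with NHL repeats, TRIM2 and TRIM32 were measured in HCC827 and TRIM32 in A549. TRIM23, the member with an ARF domain, was measured in neither line.

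The study's main array comparison asks which genes changed with TRIM58 in A549. Of 34 TRIM genes tested, 4 were called, at an adjusted p under 0.05 by limma and a change of at least 2-fold, and all 4 were lower in TRIM58-WT. They made up 11.8% of the members tested, against 7.93% of all genes tested, with 3.87% called higher and 4.06% lower. All 4 had passed the filter through the mock group only, which fixes their direction, and 29 of the 34 had passed it in both groups. The median log2 change was -0.08 over the TRIM genes and 0.03 over all 11185 genes.

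TRIM31 is a RING-type member without a further C-terminal domain. It read 4.85 and 4.95 on mock 1-1 and 1-2, 5.05 on mock 2 and 1.86 on mock 3. On the TRIM58-WT arrays it read -3.88, -4.78 and -4.51. The groups did not overlap, with mock 3 between the other mock arrays and the TRIM58-WT arrays. No TRIM58-WT array measured TRIM31 well above background, so it was at least 94.7-fold lower there (log2 change -8.32 ± 0.86 SE, limma adjusted p = 0.00443). The bound sets the mock mean against the lowest signal of any probe well above background on each dim array, or the probe's own where that was higher. The change was -8.83 within the first slide and -8.05 within the second.

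TRIM29, also known as ATDC, carries B-boxes and a coiled coil but no RING finger, and is known as a marker of squamous epithelium. It read 3.79 and 3.83 on mock 1-1 and 1-2, 4.35 on mock 2 and 1.29 on mock 3. It read -3.78, -4.37 and -3.72 on the TRIM58-WT arrays, none of which was well above background. TRIM29 was at least 54.9-fold lower in TRIM58-WT (log2 change -7.11 ± 0.77 SE, limma adjusted p = 0.00518). The change was -7.85 and -6.60 within the slides.

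TRIM34 and TRIM15 fell by less. TRIM34, a PRY-SPRY member beside TRIM5, TRIM6 and TRIM22 on chromosome 11, read -0.99 and -0.86 on mock 1-1 and 1-2, -1.23 on mock 2 and -0.94 on mock 3. It read -1.95, -2.79 and -2.71 on the TRIM58-WT arrays, of which 1 was well above background (log2 change -1.45 ± 0.27 SE, limma adjusted p = 0.0252). The change was -0.84 on the first slide and -1.85 on the second. A readthrough transcript with TRIM6 is known, and what part of the signal it gives was not tested.

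TRIM15, a PRY-SPRY member near TRIM31 and TRIM10 in the major histocompatibility region of chromosome 6, read -1.75 and -0.65 on the paired arrays mock 1-1 and 1-2, which differed by about as much as the groups. It read -0.84 on mock 2, -1.74 on mock 3 and -2.34, -2.75 and -2.83 on the TRIM58-WT arrays (log2 change -1.38 ± 0.28 SE, limma adjusted p = 0.0327). With mock array 1-1 alone TRIM15 was no longer called. TRIM34 and TRIM15 also lost their calls without TRIM58-WT replicate 2 or 3, without mock replicate 1 or 2, and with TRIM58-WT 2 and 3 averaged to 1 replicate, and 2 genes, TRIM31 and TRIM29, were then called. Without TRIM58-WT replicate 1, 6 of 34 were called, against 9.47% of all genes tested, with TRIM6 (log2 change -1.82 ± 0.27 SE) and TRIM24 (1.04 ± 0.19 SE) added.

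**Figure D2:**
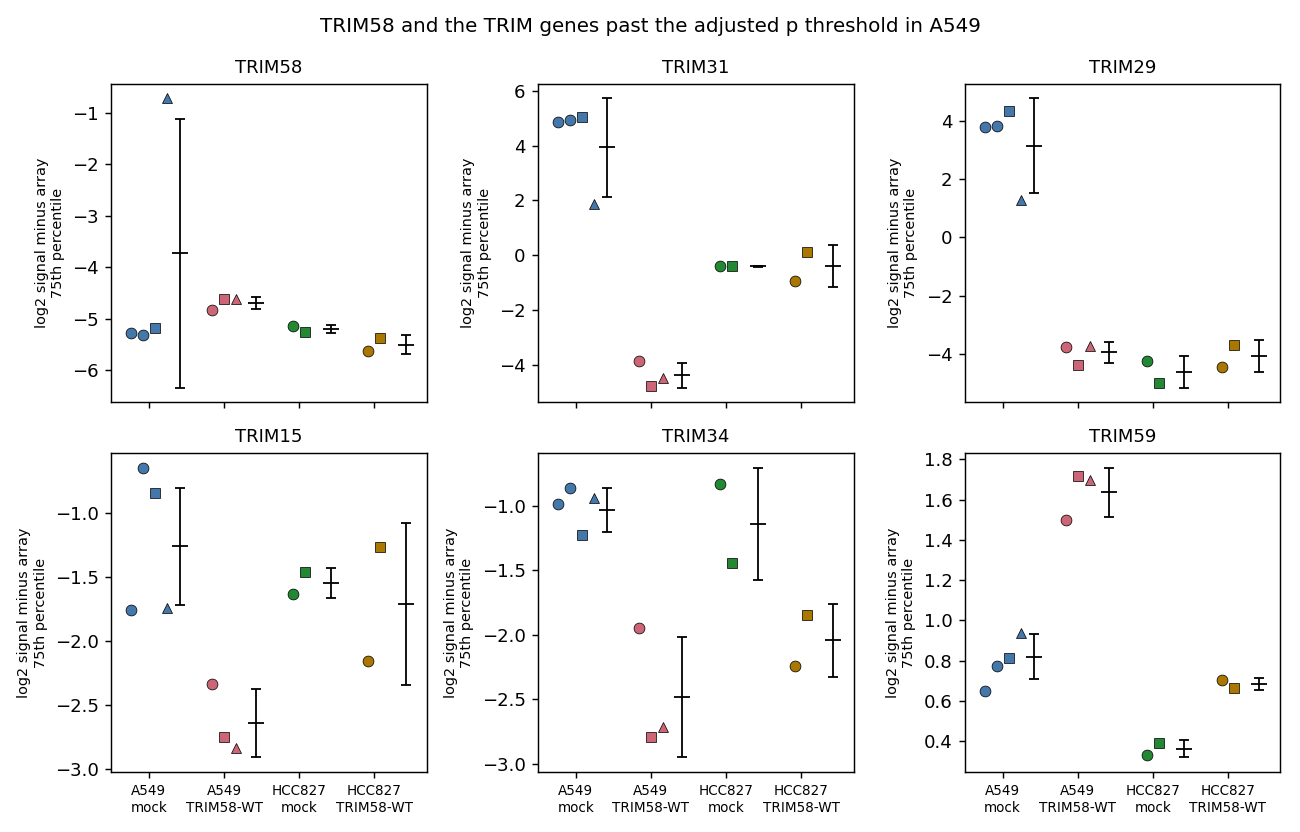
Signal of TRIM58, of the 4 TRIM genes called lower in A549 TRIM58-WT and of TRIM59 on every array, as log2 signal minus the array's 75th percentile. Circles, squares and triangles are replicates 1, 2 and 3 (both arrays of A549 mock 1 are circles), and bars give the mean and SD over replicates, with n = 3 for each A549 group and n = 2 for each HCC827 group. The TRIM31, TRIM29, TRIM15 and TRIM34 points of A549 TRIM58-WT lie below all A549 mock points.

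The remaining 30 TRIM genes tested in A549 were not called, with log2 changes from -1.48 to 0.82, and 18 of them had a 95% confidence interval that lay within 1 log2 unit of 0. TRIM59, a member with a transmembrane segment, passed the adjusted p threshold without reaching 2-fold. It read 0.65, 0.77, 0.81 and 0.94 on the mock arrays and 1.50, 1.72 and 1.70 on the TRIM58-WT arrays (log2 change 0.82 ± 0.16 SE, limma adjusted p = 0.0296). TRIM6 had a log2 change of -1.48 ± 0.36 SE that did not pass (limma adjusted p = 0.0564), with -0.50 on the first slide and -2.09 on the second. With slide as a block TRIM6 was called (log2 change -1.46 ± 0.33 SE, limma adjusted p = 0.0239). The groups did not overlap for 12 TRIM genes, or 35.3% of those tested, against 33.9% of all genes tested.

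By subfamily, 2 of 19 PRY-SPRY members tested were called lower, where 4.06% of all genes tested were, 4 of the 19 had a positive change and 15 a negative one, and the median was -0.32. None of the 3 members with a PHD finger and a bromodomain was called. TRIM24, a coregulator of nuclear receptors, had a log2 change of 0.78 (95% interval 0.14 to 1.43) and TRIM28 one of 0.37 (-0.34 to 1.08). TRIM33, a regulator of Smad signalling, had one of 0.25 (-0.17 to 0.68). TRIM8 (-0.08), TRIM32 (-0.06), TRIM37 (-0.07) and TRIM45 (0.35) were not called either. TRIM31 and TRIM15 were the called genes among 5 tested in the chromosome 6 region, which was chosen after positions were seen, so that nothing is read from their number.

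The A549 groups also differed in markers of the epithelial state. Of 5 epithelial markers tested, KRT19, EPCAM and KRT8 were called lower in TRIM58-WT, where 4.06% of all genes tested were. KRT19 and EPCAM had passed the filter through the mock group alone, which fixes their direction, and KRT8 had passed it in both groups. KRT19 was well above background on none of the 3 TRIM58-WT arrays and at least 723-fold lower there, EPCAM was so on 1 of them (log2 change -4.88) and KRT8 on all (-1.37). The mean log2 level of the 5 markers ranged from 5.35 to 6.09 over the mock arrays and from 1.70 to 2.59 over the TRIM58-WT arrays. Of the 4 markers of other cells, COL1A1 was well above background on no mock array and at least 7.13-fold higher in TRIM58-WT (limma adjusted p = 0.0105). COL1A1 had passed the filter through TRIM58-WT alone, which fixes its direction. COL3A1 and PECAM1 were well above background on no A549 array. The mean level of the 4 markers ranged from -4.08 to -3.46 over the mock arrays and from -2.61 to -2.05 over the TRIM58-WT arrays. Their part in the TRIM changes was not tested.

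Mock 3 lay far from the other mock replicates in several members. Of 40 TRIM genes well above background on the 3 arrays of mock 1 and 2, 9, or 22.5%, differed from their mean by over 1 log2 unit on mock 3, against 13.6% of all 11443 genes so measured, and no test was made of these shares. For TRIM10, TRIM14, TRIM21, TRIM22, TRIM52 and TRIM66, mock 3 was nearer the TRIM58-WT mean than the mean of mock 1 and 2. The others were TRIM2, TRIM29 and TRIM31.

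TRIM10, a member known from red blood cell development, read 0.15, 0.09 and 0.15 on mock 1-1, 1-2 and 2, -2.40 on mock 3 and -3.83, -4.57 and -4.52 on the TRIM58-WT arrays. TRIM2, a neuronal ligase with NHL repeats, read -1.80, -2.17, -1.86 and -3.23 on the mock arrays and -4.85, -4.61 and -4.60 on the TRIM58-WT arrays. Neither was tested with all replicates, since mock 3 was not well above background. TRIM21, the cytosolic antibody receptor, read -0.74, -0.69 and -0.33 on mock 1-1, 1-2 and 2, but -2.37 on mock 3 and -1.52, -1.89 and -2.14 in TRIM58-WT. TRIM22, an interferon-induced antiviral member, read -2.18, -1.85 and -1.50, then -3.94 on mock 3 and -3.08, -3.59 and -3.70 in TRIM58-WT. TRIM21 was well above background on every TRIM58-WT array but not on mock 3, where it read lower. TRIM22 was not well above background on mock 3 or on any TRIM58-WT array, where its values have no order.

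Without mock replicate 3, 9 of 40 TRIM genes tested were called, all lower, against 13.5% of all genes tested. The 4 called with all replicates were among them. Of the 9, 7 had passed the filter through the mock group alone, which fixes their direction. TRIM21 (log2 change -1.33 ± 0.26 SE) and TRIM35 (-1.07 ± 0.23) had passed it in both groups. TRIM2, TRIM10 and TRIM22 were well above background on no TRIM58-WT array and were at least 1.63-fold, 6.80-fold and 1.83-fold lower there. The bounds were 195-fold for TRIM31 and 105-fold for TRIM29 in this comparison.

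**Figure D3:**
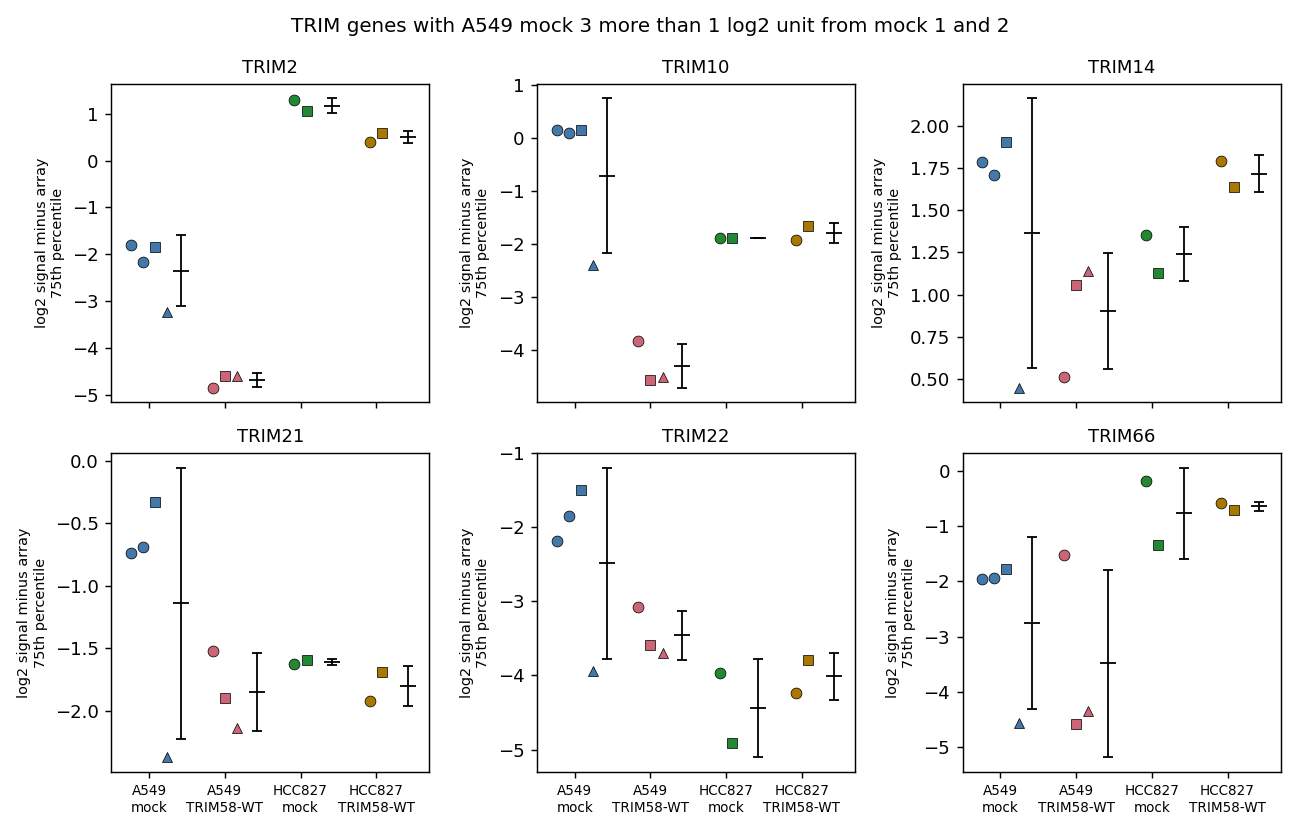
Signal of TRIM2, TRIM10, TRIM14, TRIM21, TRIM22 and TRIM66 on every array, as log2 signal minus the array's 75th percentile. Circles, squares and triangles are replicates 1, 2 and 3, and bars give the mean and SD over replicates (n = 3 for each A549 group, n = 2 for each HCC827 group). The triangle of A549 mock lies below the other mock points in all 6 genes, and below every TRIM58-WT point in TRIM14 and TRIM21. TRIM21 was not well above background on A549 mock 3. TRIM22 was not well above background on A549 mock 3 or on any A549 TRIM58-WT array.

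Interferon-stimulated genes followed the same array. Their mean log2 level over 15 genes was 3.18, 3.12 and 3.48 on mock 1-1, 1-2 and 2, -0.56 on mock 3 and 0.31, -1.09 and -0.95 on the TRIM58-WT arrays. Of 11 tested in A549 with all replicates, 1, OAS1, was called lower (at least 28.8-fold, limma adjusted p = 0.0108), against 4.06% of all genes tested. OAS1 was well above background on no TRIM58-WT array and had passed the filter through mock alone, which fixes its direction. All 11 had a negative change, with a median of -2.08. Without mock replicate 3, 14 of 15 were called lower, against 13.5% of all genes called in either direction. Of the 14, 6 had passed the filter through the mock group alone, which fixes their direction, and 8 in both groups. The median was -4.30, or -3.91 with the 2 genes well above background on no TRIM58-WT array at their bound. Of the 8 antiviral and interferon-linked TRIM genes, 1 of 6 tested was called lower with all replicates, against 4.06% of all genes tested. That gene had passed the filter through the mock group only, which fixes its direction. Without mock replicate 3, 3 of 8 were called lower, against 13.5% of all genes called in either direction. Of the 9 TRIM genes called in that comparison, 7 had passed through mock alone.

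In HCC827 the same contrast called no TRIM gene. Of 41 tested, 0 passed by limma and 0 by the methods' t-test, and 10 had an unadjusted p under 0.05 in limma, or 24.4%, against 21.8% of all genes tested. Of all genes tested, 1.07% were called. The log2 changes ranged from -0.90 to 0.84, with a median of 0.11 against 0.01 over all 12182 genes, and 32 of the 41 had a 95% confidence interval within 1 log2 unit of 0. The groups did not overlap for 24 TRIM genes, or 58.5%, against 59.1% of all genes tested.

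TRIM34 had the most negative change, with -0.83 and -1.44 on the mock arrays and -2.24 and -1.84 on the TRIM58-WT arrays (log2 change -0.90 ± 0.28 SE, 95% interval -1.64 to -0.16, limma adjusted p = 0.193). TRIM36, a COS box member, had the most positive, with -3.53 and -3.51 against -2.50 and -2.85, and was not well above background on the mock arrays (log2 change 0.84 ± 0.17 SE, limma adjusted p = 0.111). TRIM2 read 1.29 and 1.06 on the mock arrays and 0.40 and 0.59 on the TRIM58-WT arrays (log2 change -0.67 ± 0.16 SE, limma adjusted p = 0.137). TRIM31 read -0.41 and -0.42 on the mock arrays and -0.95 and 0.13 on the TRIM58-WT arrays, which enclosed the mock values (95% interval -1.03 to 1.03). TRIM33 read 0.47 and 0.48 on the mock arrays, but -0.97 and 0.65 on the TRIM58-WT arrays.

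Among the other TRIM genes in HCC827, 17 of 21 PRY-SPRY members tested had a positive change, with a median of 0.14, and none was called. TRIM14, an adaptor of the antiviral response, had a log2 change of 0.48 (95% interval 0.06 to 0.89) and TRIM25 one of 0.47 (0.05 to 0.89). TRIM5, a restriction factor of retroviruses, had one of -0.45 (-0.82 to -0.09). All 15 interferon-stimulated genes tested had a positive change, none was called, and their median was 0.50. The mean level of the 5 epithelial markers ranged from 6.63 to 6.65 in mock and from 6.96 to 7.04 in TRIM58-WT, and all 5 were well above background on every HCC827 array.

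Whether the change with TRIM58-WT differed between A549 and HCC827 was tested over all replicates. Of 42 TRIM genes tested, 2 were called, TRIM31 and TRIM29, both lower in A549 relative to HCC827, against 4.61% of all genes tested. The difference of the log2 changes was -8.32 ± 1.24 SE for TRIM31 (limma adjusted p = 0.0109) and -7.66 ± 1.13 SE for TRIM29 (limma adjusted p = 0.0107). The call on TRIM31 was lost without HCC827 TRIM58-WT replicate 2 (limma adjusted p = 0.0509) and without HCC827 mock replicate 1 (limma adjusted p = 0.0605). TRIM29 was not well above background on any HCC827 array, reading -4.25 and -5.01 on mock and -4.47 and -3.69 on TRIM58-WT, so a decrease could not have been measured there, and its difference restates the change in A549 and does not show that the lines responded differently. The call on TRIM29 was also lost with the replicate block (limma adjusted p = 0.0541). With normexp background correction both calls were lost (limma adjusted p = 0.0680 for TRIM31 and 0.0728 for TRIM29). For TRIM34, called in A549, the difference was -0.55 (95% interval -1.54 to 0.44), and for TRIM15 it was -1.22 (-2.31 to -0.12), with limma adjusted p of 0.548 and 0.221.

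TRIM6, a PRY-SPRY member, had log2 changes of opposite sign in the lines, and their difference did not pass the test. In A549 it read -0.19, 0.07, -0.44 and 0.40 on the mock arrays and -0.82, -1.84 and -1.87 on the TRIM58-WT arrays. In HCC827 it read -0.18 and -0.08 on mock and 0.34 and 0.49 on TRIM58-WT. The difference was -2.02 ± 0.50 SE (limma adjusted p = 0.0695). With slide as a block it was called (limma adjusted p = 0.0420). Without A549 mock replicate 3, 7 TRIM genes were called, against 12.4% of all genes tested. TRIM2, TRIM10, TRIM14, TRIM22 and TRIM36 then joined TRIM29 and TRIM31, all lower in A549 relative to HCC827, and TRIM22, like TRIM29, was well above background on no HCC827 array.

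**Figure D4:**
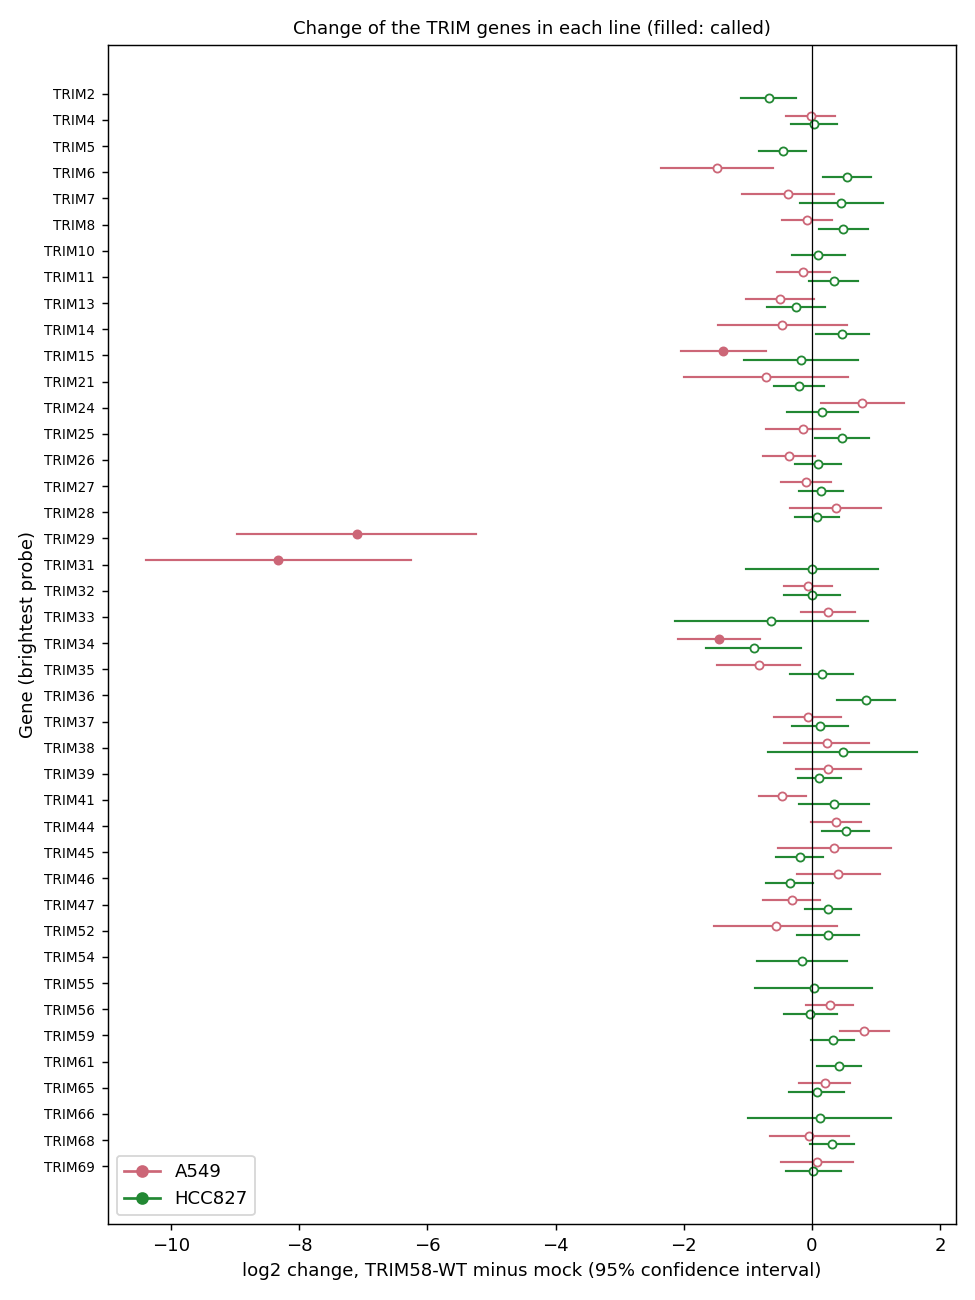
Log2 change of each TRIM gene tested, TRIM58-WT minus mock, in A549 and HCC827. Points are limma estimates, bars are 95% confidence intervals, and filled points were called; a gene without a point was not tested in that line. TRIM31 and TRIM29 lie far to the left in A549, and no HCC827 point is filled.

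The mock cells gave the baseline of the family in both lines. Of 41 TRIM genes tested between A549 mock and HCC827 mock, 10 were called, or 24.4%, against 31.9% of all genes tested, with 15.5% called higher in A549 and 16.4% lower. By their brightest probes TRIM4, TRIM7, TRIM29, TRIM31 and TRIM68 were higher in A549, though a second TRIM4 probe was lower, and TRIM2, TRIM33, TRIM45, TRIM55 and TRIM61 were lower. Of the 10, 4 had passed the filter through the group where they were high, which fixes their direction, with TRIM29 through A549 and TRIM2, TRIM55 and TRIM61 through HCC827. Line and slide partly coincide, since HCC827 was on the first slide only.

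TRIM7, a PRY-SPRY ligase first found as a partner of glycogenin, read 3.60, 3.38, 3.48 and 3.74 on the A549 mock arrays and -0.36 and -0.20 in HCC827 (log2 difference 3.85 ± 0.18 SE, limma adjusted p = 0.000138). TRIM68, a coactivator of the androgen receptor, read 0.60, 0.56, 0.72 and 0.04 against -1.20 and -1.27 (1.68 ± 0.25 SE, limma adjusted p = 0.00492). TRIM29 was at least 83.5-fold higher in A549 (limma adjusted p = 0.00264). TRIM31 differed by 4.35 ± 1.02 SE (limma adjusted p = 0.0221). The call on TRIM31 was lost without A549 mock replicate 1 and without either HCC827 mock replicate.

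TRIM4 had 2 probes that pointed in opposite directions. The brighter read 3.75, 3.64, 3.70 and 3.62 on the A549 mock arrays and 1.40 and 1.36 in HCC827 (log2 difference 2.30 ± 0.15 SE, limma adjusted p = 0.000372). The other gave -1.44 (limma adjusted p = 0.00307), so no single direction holds for the gene. For TRIM37, a MATH domain ligase, the brightest probe gave -0.78 (limma adjusted p = 0.0588) and the other -2.32 (limma adjusted p = 0.000402). For TRIM46 the brightest probe gave 0.45 (limma adjusted p = 0.255) and another -2.17 (limma adjusted p = 0.00284). Of the 63 genes, 25 had more than 1 probe.

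TRIM55, a ligase of striated muscle, was the most different of the members lower in A549 besides TRIM2. It read -4.33, -4.00, -3.89 and -3.60 on the A549 mock arrays, none well above background, and -0.83 and -0.53 in HCC827, at least 4.62-fold higher there (limma adjusted p = 0.000506), and its other probe gave -3.46. TRIM2 read 1.29 and 1.06 in HCC827 (log2 difference -3.53 ± 0.45 SE, limma adjusted p = 0.00309), and 3 of 4 A549 mock arrays measured it. TRIM33 (-1.09 ± 0.18 SE), TRIM45 (-1.45 ± 0.30 SE) and TRIM61 (-1.08 ± 0.24 SE) were nearer the 2-fold limit, TRIM61 with 1 of 4 A549 mock arrays well above background. TRIM45 and TRIM33 were not called without either HCC827 mock replicate, and TRIM61 was not called without A549 mock replicate 1 or 3 or either HCC827 mock replicate. Without A549 mock replicate 3, 14 of 43 TRIM genes were called, against 35.6% of all genes, and TRIM10, TRIM21, TRIM22 and TRIM36 were among those higher in A549, TRIM22 and TRIM36 with no HCC827 mock array well above background.

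**Figure D5:**
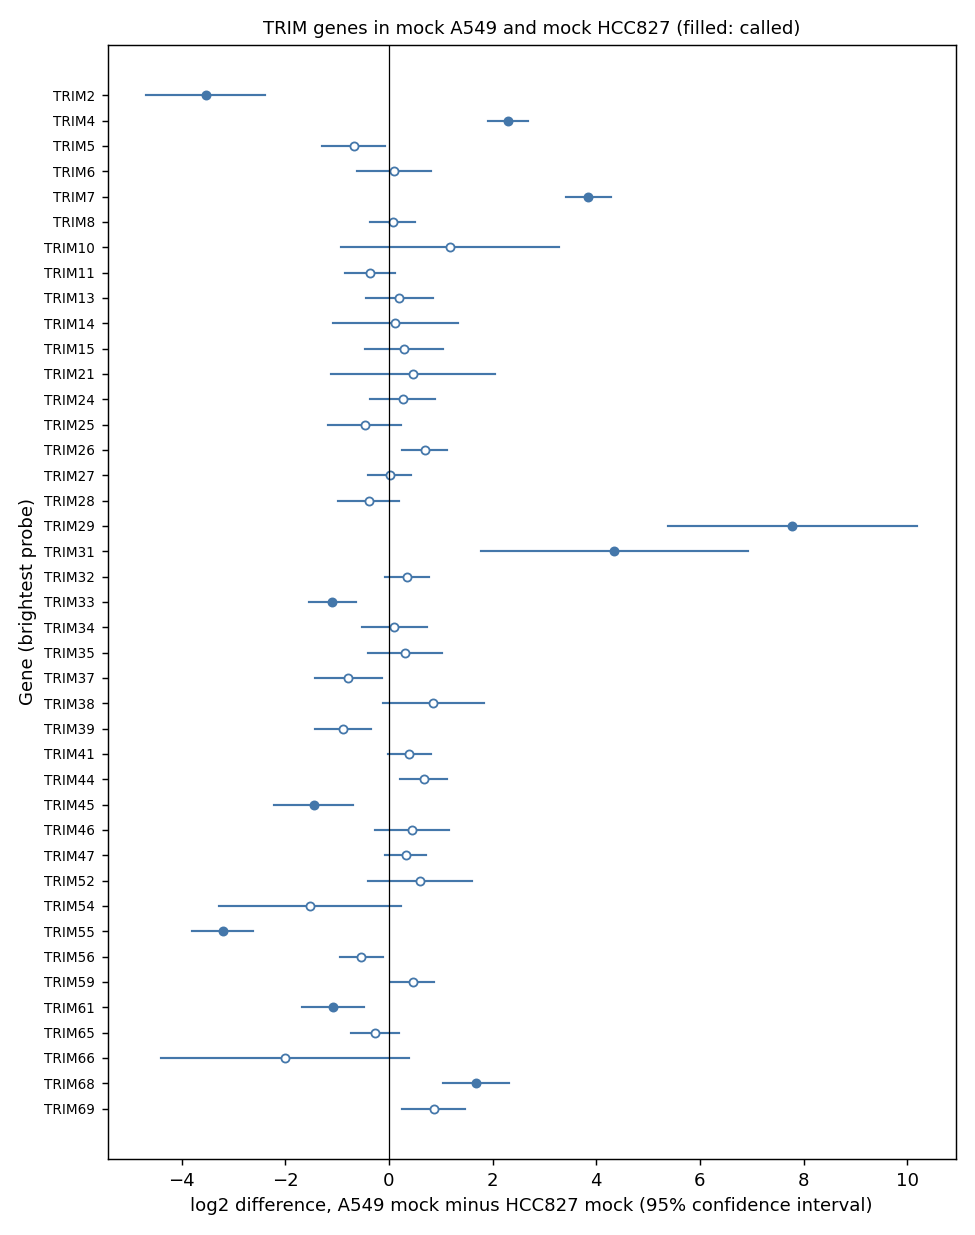
Log2 difference between A549 mock and HCC827 mock for each of the 41 TRIM genes tested, with 95% confidence intervals; filled points were called. The 5 genes whose brightest probe was called higher in A549 lie on the right, led by TRIM29 and with TRIM4, whose second probe was lower, among them, and the 5 called lower lie on the left, led by TRIM2 and TRIM55.

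None of the enzymes that act with the ligases was called with TRIM58-WT. Of all genes tested, 7.93% were called in A549 and 1.07% in HCC827. Of 15 ubiquitin-activating and ubiquitin-conjugating enzymes, 13 were tested in A549, without UBA6 and UBE2E1, and 15 in HCC827. UBE2E1 had a log2 change of -1.04 ± 0.23 SE in HCC827 that did not pass (limma adjusted p = 0.127). UBE2W, which attaches ubiquitin to protein N termini, had a log2 change of -0.71 ± 0.15 SE in A549 (limma adjusted p = 0.0376), short of 2-fold, and of -0.59 ± 0.16 SE in HCC827. Between the mock lines 3 of 15 were called lower in A549, against 16.4% of all genes tested, and none was called higher. The 3 were UBE2W (-3.15 ± 0.17 SE), UBE2E3 (-1.51 ± 0.15 SE) and UBE2E2 (-1.07 ± 0.17 SE).

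TRIM proteins that carry another symbol were read as a separate list of 6 genes, of which 4 were tested in each comparison. None was called with TRIM58-WT in either line, where 7.93% of all genes tested were called in A549 and 1.07% in HCC827. The difference between lines was called for 1 of the 4, MID1, a COS box member that binds microtubules (0.99 ± 0.22 SE, limma adjusted p = 0.0499). Of all genes tested for it, 4.61% were called. The MID1 call rests on the adjusted p alone, close to its threshold, and was not recomputed under the alternatives. MID1 read 0.62, 0.68, 0.70 and 0.82 in A549 mock and 1.27, 1.09 and 1.14 in A549 TRIM58-WT, but -1.59 ± 0.06 (SD, n = 2) in HCC827 mock and -2.14 ± 0.19 (SD, n = 2) in HCC827 TRIM58-WT. The groups did not overlap in either line and lay in opposite order. Non-overlapping groups were found for 33.9% of all genes tested in A549 and 59.1% in HCC827. MID1 (2.31 ± 0.16 SE) and MID2 (1.09 ± 0.20 SE) were called higher in A549 mock than in HCC827 mock. They were 2 of the 4 tested, against 15.5% of all genes tested.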

How the data were processed

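Total RNA of A549 and HCC827 transfectants was hybridised on 11 1-colour Agilent arrays. The authors deposited spot intensities after background subtraction and spatial detrending, with no scaling between arrays (Agilent Feature Extraction 11.5.1.1 per the file headers), and their own log2 values, used here as an alternative. Arrays have no read depth, so their number limits the precision.

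With R 4.3.3 and limma 3.58.1, outlier and control spots were left out, spots of a probe were averaged, and the 75th percentile over 42405 probes was subtracted from the log2 values of each array. The tests (lmFit, eBayes, Benjamini-Hochberg adjustment over all probes tested) took in each probe that was well above background throughout 1 of the groups or more. Called means an adjusted p under 0.05 and a change of at least 2-fold, and for the difference between lines the adjusted p alone. Changes without replicate block are given, as mock and TRIM58-WT replicates of the same number did not deviate alike throughout. Their deviations from the group mean, over probes well above background on all arrays, correlated at 0.59, -0.49 and 0.59 in A549. In HCC827 the correlation was 0.10, a single value because 2 replicates deviate by equal amounts. Samples were grouped by label. Probes were named through RefSeq accessions (27241 of 42405). Promoter sequences came from RefSeq (GRCh38.p14), whereas the array was designed on an earlier build.

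The genes named are TRIM58, called members, the strongest probes, members whose probes differ in call, up to 4 members of each subfamily in order of number, and called genes of the other lists. Members and lists were chosen with earlier results of these data known, and the chromosome 6 region after positions were seen. Alternatives were other scalings (median shift, quantile, percentile over detected probes), normexp with an offset of 50, filters, outlier spots kept, the authors' table, the methods' t-test (Welch), other uses of the paired mock arrays, one fit for all groups, slide and replicate blocks, other probe rules and each replicate left out. The tests were tested on simulated data with a log2 change of 2, up or down, set in 200 probes per comparison. Of these, 65.5% were called in A549, 59% in HCC827, 35.5% for the difference and 56% between the mock lines. Among the unchanged probes 0, 6, 1 and 6 were called. A change of that size can therefore go uncalled. Python 3.11.15 with matplotlib 3.10.9 drew the figures.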

Additional observations from a re-analysis of the deposited data

Results flagged for a closer look

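A test of the difference between the lines in the change with TRIM58-WT called 2 TRIM genes. For TRIM31 the difference of the log2 changes, A549 minus HCC827, was -8.32 (limma adjusted p = 0.0109), and the call was lost with normexp background correction and without HCC827 TRIM58-WT replicate 2 or HCC827 mock replicate 1. For TRIM29 it was -7.66 (limma adjusted p = 0.0107), and the call was lost with normexp background correction and with the replicate block. No HCC827 array measured TRIM29 well above background, so its value restates the change in A549. All 3 TRIM58-WT replicates of A549 lay below all 3 mock replicates in both genes, and groups did not overlap for 33.9% of all genes tested in A549. Both genes had passed the filter in A549 through the mock group only, which fixes the direction of their change there.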

How the results depend on the processing

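The 4 TRIM genes called in A549 became 2 (TRIM29 and TRIM31) with the percentile over detected probes, with normexp correction and with TRIM58-WT 2 and 3 averaged (chosen after seeing the data), and 0 with probes required on every array or with the methods' t-test. They became 5, with TRIM6 added, under quantile normalization, a median shift, the paired mock arrays separate, one fit for all groups and slide as a block. The difference between lines, with 2 genes called, gave 4 with a median shift, with the paired mock arrays separate and with slide as a block, and 0 with normexp correction or probes required on every array. The 10 genes called between the mock lines became 5 with normexp correction or the methods' t-test and 6 with probes required on every array. HCC827 gave 0 under every alternative run. The cause was not tested, except that requiring every array removes genes that are dim in 1 group by construction. With the replicate block, which the correlations do not bear out as a pairing, the counts were 4 in A549, 0 in HCC827 and 1 for the difference, where the call on TRIM29 was lost. Slide could not be fitted as a block in HCC827, on 1 slide only. Leaving out 1 replicate gave 2 to 9 in A549, 0 in HCC827, 1 to 7 for the difference (7 without A549 mock replicate 3, 1 without HCC827 mock replicate 1) and 6 to 14 between the mock lines (6 without HCC827 mock replicate 1). Where this left 1 sample in a group, it was assumed to vary like the others. Detection moved between 29 and 48 genes in A549 and between 39 and 42 in HCC827.

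Over 16 changes of called genes, no direction reversed in 348 recomputed values, 298 kept their call and 50 lost it. The calls on TRIM31 and TRIM29 in A549 were lost with the methods' t-test alone among the alternatives that tested them. A median shift moved all A549 changes by -0.37 (log2) and the share of called probes that were higher from 50.5% to 25.6%. In HCC827 it moved that share from 32.9% to 45.7%, and for the difference, where it moved all changes by -0.40, from 47.4% to 27.9%. TRIM genes called in A549 were lower under each scaling.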

Other observations

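Of the TRIM genes outside the comparisons with all replicates, 6 were well above background on some arrays but in neither line, TRIM58 on A549 mock 3 among them. TRIM17 read -0.09 on A549 TRIM58-WT 1, the array on which it was well above background, and between -5.44 and -4.61 on the other arrays. TRIM3 was well above background on that array alone as well, TRIM40 on that array and on A549 mock 2, TRIM62 on 4 arrays, and TRIM22 on the 3 arrays of A549 mock 1 and 2. The probe of TRIM39-RPP21, a readthrough transcript that shares sequence with TRIM39, was well above background on all 11 arrays, between 4.65 and 5.46. TRIM49D1 was so on 1 array and TRIM53AP on none.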
